A study of Mus musculus with 50 samples.

Results

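The genes described here belong to the program of the 2-cell mouse embryo: Zscan4c, Zscan4d, Zscan4f, Tcstv1, Tcstv3 and Zfp352. They were chosen by name, as 6 listed genes out of the 18055 genes in the deposited table of normalised read counts, and 4 of the 6 had a row in it (Zscan4c, Zscan4d, Zscan4f and Zfp352). Tcstv1 and Tcstv3 were not analysed here. RNA-seq had been carried out in 4 lines of mouse embryonic stem cells (ESCs), with 2 libraries per line. These were the wild-type line E14TG2a (WT), an Ezh2 KO line in which a large deletion removes Ezh2, an Ezh1/2 dKO line with deletions of both genes, and the Ezh2 Y726D line, which lacks Ezh1 and carries a point mutation that inactivates the catalytic domain of EZH2. Each mutant line was derived by CRISPR/Cas9 from the same wild type and was expanded from a clone, and all lines were kept on gelatin in medium with serum, LIF and the 2 inhibitors known as 2i. Lists of ChIP-seq peaks and ATAC-seq regions from these lines, from an Ezh2 R685C line (also without Ezh1) and from Ezh1/2 dKO ESCs given back an HA-tagged human EZH1 were read at the loci of the same genes, with 1 list per line and target. The study states in general terms that its samples were biological replicates, but the labels do not say whether the 2 libraries of a line came from separate cultures. The p-values therefore measure the spread between these libraries, part of which may be technical.

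EZH1 and EZH2 are the alternative catalytic subunits of Polycomb repressive complex 2 (PRC2), which methylates histone H3 at lysine 27, and SUZ12 is a core subunit of the same complex. In mouse embryos the zygotic genome is first transcribed strongly at the 2-cell stage, when clustered genes such as Zscan4, Tcstv, Usp17l and Tdpoz and the MERVL endogenous retroviruses are switched on and then silenced. In an ESC culture a few cells at any time re-enter a state with this program, so the level of these genes in bulk RNA reflects rare cells. Fewer such cells and less RNA per cell cannot be told apart in these libraries. ZSCAN4 proteins hold a SCAN domain and zinc fingers and are known for their role in telomere maintenance and genome stability in ESCs, and Zfp352 encodes a zinc finger protein that is an early marker of the program.

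The 3 Zscan4 genes are near-identical copies within a cluster on chromosome 7, and this sets what reads of 50 bases can separate. In the mm9 build, Zscan4c lies at chr7:11591071-11595896 on the plus strand, Zscan4d at chr7:11746992-11751497 on the minus strand and Zscan4f at chr7:11983264-11988090 on the plus strand. Zfp352 stands elsewhere, at chr4:89885511-89892393 on the plus strand. The 3 Zscan4 coding sequences of the GENCODE annotation all have 1518 bases and differ at 38 positions in all. Zscan4c and Zscan4f differ at 6 of them (99.6% identity), while Zscan4d differs from each of the others at 35 (97.7% identity). The stretch of 90 coding bases that holds the most differences is printed for the 3 genes (coding positions 676 to 765, counted from the A of the start codon, read 5′ to 3′ on the coding strand, mm9), with the 8 positions that differ among them in capitals. Zscan4c and Zscan4f have the same base at each of these 8 positions, so that a read from this stretch separates Zscan4d from the other pair but not the pair from each other. The stretches lie at chr7:11594500-11594589 (plus strand), chr7:11748026-11748115 (minus strand) and chr7:11986693-11986782 (plus strand), in the same order.
Zscan4c: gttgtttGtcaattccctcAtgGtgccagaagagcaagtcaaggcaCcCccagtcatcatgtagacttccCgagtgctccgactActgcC
Zscan4d: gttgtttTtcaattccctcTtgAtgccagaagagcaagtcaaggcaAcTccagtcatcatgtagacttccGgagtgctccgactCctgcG
Zscan4f: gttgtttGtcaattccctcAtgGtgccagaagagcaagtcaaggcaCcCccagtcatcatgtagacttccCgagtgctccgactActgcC

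The 110 bases upstream of the start are printed for the 3 Zscan4 genes, because they share a TATA element (RefSeq promoters, build GRCm38.p6, read 5′ to 3′ on the gene's strand). The element TATAAAAGGG, in capitals, began 54 bases before the annotated start of Zscan4c, 65 before that of Zscan4d and 31 before that of Zscan4f, so the annotated starts lie at different distances from it. On either strand, this element was found in 89 of the 32851 promoters of 300 bases in the table (0.271%), and the shorter TATAAAA contained in it in 5.48%. The bases shown are chr7:11005635-11005744 (plus strand), chr7:11166149-11166258 (minus strand) and chr7:11397805-11397914 (plus strand), in the same order.
Zscan4c: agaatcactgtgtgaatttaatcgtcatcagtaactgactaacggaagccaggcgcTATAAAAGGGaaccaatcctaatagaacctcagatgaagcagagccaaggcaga
Zscan4d: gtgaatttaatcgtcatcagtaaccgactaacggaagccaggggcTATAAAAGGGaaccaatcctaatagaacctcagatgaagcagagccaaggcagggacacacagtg
Zscan4f: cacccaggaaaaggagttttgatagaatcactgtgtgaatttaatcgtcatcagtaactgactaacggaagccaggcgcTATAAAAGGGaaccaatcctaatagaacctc

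The sequence upstream of Zfp352 had no such element and held a tandem repeat instead. It is printed from 215 to 61 bases before the start (chr4:90218605-90218759, plus strand, GRCm38.p6), with 7 copies of the unit AATCNNGGACAACACAC in capitals, and a further copy begins 247 bases before the start, outside the printed stretch. The core of the unit, GGACAACACA, was found on either strand in 20 of the 32851 promoters (0.0609%), Zfp352 included. A search on both strands for GATTNAATC, a motif of the kind bound by the 2-cell activator DUX, matched 88 promoters (0.268%) and none of the 4 genes within these 300 bases.
Zfp352: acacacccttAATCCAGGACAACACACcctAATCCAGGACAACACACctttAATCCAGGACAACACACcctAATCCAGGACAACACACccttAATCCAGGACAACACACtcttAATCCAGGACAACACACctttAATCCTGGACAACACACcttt

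The share of read-sized stretches that are unique in the genome differed widely among the 3 Zscan4 genes. Of the 50-base stretches within the exons of Zscan4f, 2.29% matched mm9 in 1 place, and the share was 15.5% for Zscan4c, 50.5% for Zscan4d and 90.9% for Zfp352. For 8 ESC marker genes with a position in the annotation, among them Pou5f1 and Sox2, the share was 65.2% to 100%. The Zscan4 stretches were found in up to 10 places, those of Zfp352 in up to 2. Counts of Zscan4f and Zscan4c therefore rest on a small part of the transcript or on reads that a relative could also have given, as do those of Zscan4d for the part of it that is not unique, and the 3 Zscan4 members do not give independent measurements.

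**Figure D1:**
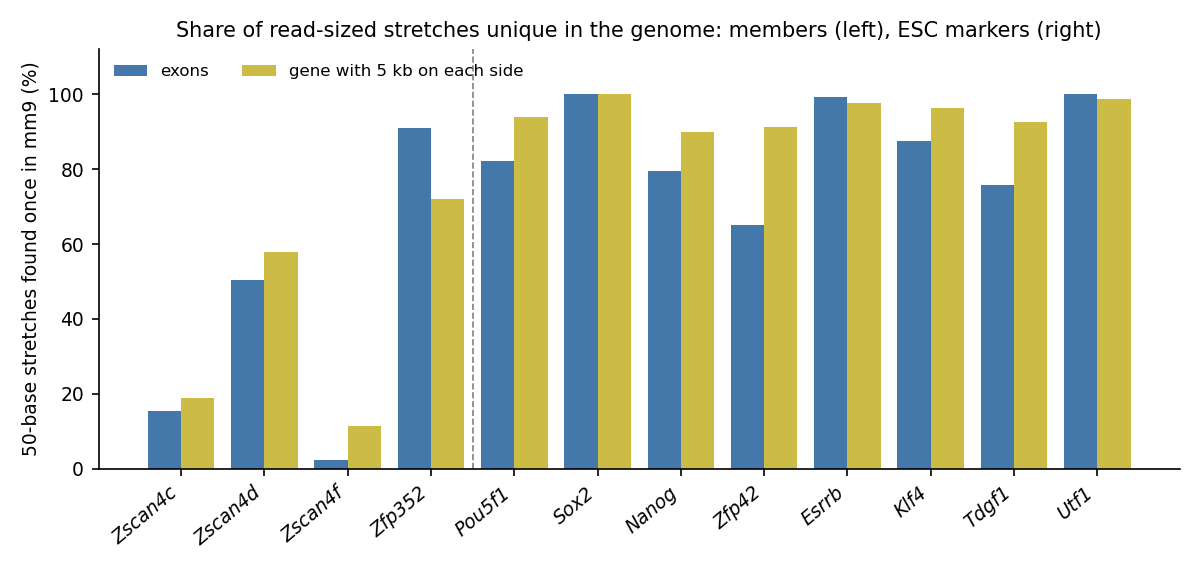
Bars give, per gene, the percentage of 50-base stretches with exactly 1 match in the mm9 genome, within exons (blue) and within the gene and 5 kb on each side (yellow), for the 4 members left of the dashed line and 8 ESC markers right of it. Zscan4f has the lowest exon value, 2.29%, and Zfp352 the highest among the members, 90.9%.

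The libraries held 3604123 to 5181553 reads in genes, and the targeted genes matched the labels. Ezh2 had a normalised count of 598 and 546 in WT and of 0.824 to 1.78 in the Ezh2 KO and Ezh1/2 dKO libraries, and 422 and 613 in Ezh2 Y726D. Ezh1 had 227 and 377 in WT, 372 and 378 in Ezh2 KO, and 14.01 to 24.1 in the 4 libraries of the lines that lack it. Of 9 ESC markers, 0 were called in any of the 6 comparisons by limma, edgeR or DESeq2 (an unadjusted limma p under 0.05 in 6 of 54 tests), and their summed normalised count ran from 13552 to 17078 over the 8 libraries. By limma, 0.0577% to 3.63% of all tested genes were called per direction and comparison, so few calls are due in a set of this size.

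The Zscan4 genes had their lowest level in Ezh2 KO ESCs and their highest in Ezh1/2 dKO and WT ESCs, with Ezh2 Y726D ESCs between. A normalised count is the number of reads on a gene divided by the library's size factor. For Zscan4c it was 213 and 105 in WT, 4.18 and 4.84 in Ezh2 KO, 206 and 265 in Ezh1/2 dKO, and 17.8 and 42.5 in Ezh2 Y726D. Both Ezh2 KO libraries and both Ezh2 Y726D libraries lay below both WT libraries, while Ezh1/2 dKO and WT overlapped.

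Zscan4d had the highest WT counts of the 3 Zscan4 members, 301 and 125 in WT, 5.23 and 4.84 in Ezh2 KO, 254 and 412 in Ezh1/2 dKO, and 21.4 and 59.3 in Ezh2 Y726D. Zscan4f had 136 and 63.5 in WT, 2.09 and 4.84 in Ezh2 KO, 128 and 180 in Ezh1/2 dKO, and 16.05 and 45.9 in Ezh2 Y726D. The order of the 4 lines was the same as for Zscan4c, and again only WT and Ezh1/2 dKO overlapped. In Ezh2 KO these values stood for 2 to 5 reads per gene and library.

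Zfp352 was expressed at a lower level and moved within a smaller range. Its normalised count was 45.4 and 17.3 in WT, 11.5 and 4.84 in Ezh2 KO, 65.9 and 56.8 in Ezh1/2 dKO, and 25.9 and 14.5 in Ezh2 Y726D. Both Ezh1/2 dKO libraries lay above those of every other line and both Ezh2 KO libraries below, and Ezh2 Y726D overlapped WT.

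**Figure D2:**
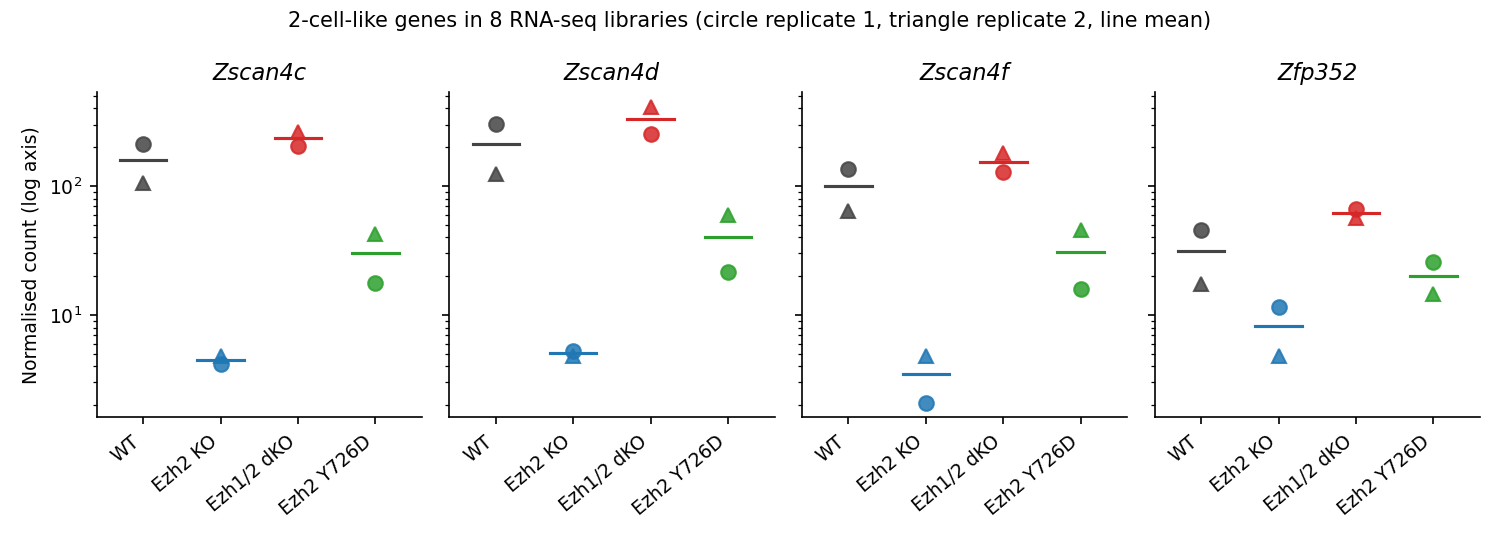
Each panel shows 1 gene, with its normalised count on a log axis for the 2 libraries of each line (circle, replicate 1; triangle, replicate 2) and a bar at their mean. Zscan4c falls from 105 and 213 in WT to 4.18 and 4.84 in Ezh2 KO, and Zfp352 spans a smaller range than the 3 Zscan4 genes.

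The 2 libraries of a line differed by a factor of 2.03 to 2.62 for the 4 genes in WT and of 1.78 to 2.86 in Ezh2 Y726D. In Ezh1/2 dKO the factor was 1.16 to 1.62. WT replicate 1 was the higher of the WT pair for all 4 genes. In Ezh2 Y726D, replicate 2 was the higher for the 3 Zscan4 genes and replicate 1 for Zfp352. Per kilobase of exon, the mean level in WT was 107 normalised counts for Zscan4d, 69.2 for Zscan4c, 41.1 for Zscan4f and 13.5 for Zfp352. The WT libraries of neighbours in this order overlapped within the Zscan4 genes, and those of Zfp352 lay below them. Among the 3 Zscan4 genes the unique share of the exons ran in the same order (50.5%, 15.5% and 2.29%). Zfp352 had the largest unique share, 90.9%, and the lowest level. The part of this share in the levels was not tested.

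In Ezh2 KO against WT, Zscan4c, Zscan4d and Zscan4f fell. The log2 fold change, on the scale of log2(normalised count + 1), was -4.78 ± 0.48 (SE) for Zscan4c, -5.02 ± 0.54 for Zscan4d and -4.47 ± 0.59 for Zscan4f (limma fitted across all genes, Benjamini-Hochberg adjusted p = 0.00767, 0.00899 and 0.0189). Zfp352 had -1.77 ± 0.58 with an adjusted p of 0.371. A gene was called when its adjusted p was under 0.1 and its absolute log2 fold change at least 1, and by this rule 3 of the 4 genes were lower, where 0.31% of the 13872 tested genes were lower and 0.0937% higher. Among all tested genes ordered from the lowest log2 fold change, Zscan4d was number 8, Zscan4c number 13, Zscan4f number 19 and Zfp352 number 204. Leaving out Ezh2 KO replicate 2 left the log2 fold changes between -4.97 and -4.86 but ended the 3 calls (adjusted p = 0.104 to 0.136 with limma). The call of Zscan4f also ended without WT replicate 1 (-3.93, limma adjusted p = 0.154) or without Ezh2 KO replicate 1 (-4.01, limma adjusted p = 0.173).

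In Ezh1/2 dKO against WT, none of the 4 genes passed the test, where 3.63% of tested genes were higher and 0.389% lower. The log2 fold change was 0.64 ± 0.48 for Zscan4c, 0.73 ± 0.54 for Zscan4d, 0.70 ± 0.59 for Zscan4f and 1.09 ± 0.58 for Zfp352 (limma adjusted p = 0.507, 0.501, 0.555 and 0.346). None had an unadjusted limma p under 0.05, and edgeR and DESeq2 called 0 of the 4 as well. The normalisation affected the background here: 503 genes were higher and 54 lower, but 290 and 129 after quantile normalisation.

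In Ezh2 Y726D against WT, Zscan4c and Zscan4d fell, by less than in Ezh2 KO. Their log2 fold changes were -2.40 ± 0.48 and -2.41 ± 0.54 (limma adjusted p = 0.048 and 0.0679). Zscan4f had -1.73 ± 0.59 and Zfp352 -0.51 ± 0.58 (limma adjusted p = 0.206 and 0.787). Thus 2 of 4 genes were lower, against 1.06% of all tested genes lower and 1.66% higher. The count was 2 with edgeR as well and 3 with DESeq2, which also called Zscan4f (-1.70, DESeq2 adjusted p = 0.0532). Both calls depended on single libraries: 0 of the 4 genes were called without WT replicate 1, without Ezh1/2 dKO replicate 1 or without Ezh1/2 dKO replicate 2, and 1 (Zscan4c) without either Ezh2 KO library or without Ezh2 Y726D replicate 1, since all 8 libraries share 1 estimate of the spread. Without WT replicate 1 the log2 fold change was -1.89 for Zscan4c, -1.78 for Zscan4d and 0.16 for Zfp352.

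The 3 comparisons with WT share the WT libraries, so the mutant lines were also compared with each other. All 4 genes were higher in Ezh1/2 dKO than in Ezh2 KO, with log2 fold changes of 5.41 ± 0.48 for Zscan4c, 5.75 ± 0.54 for Zscan4d, 5.17 ± 0.59 for Zscan4f and 2.86 ± 0.58 for Zfp352 (limma adjusted p = 0.00197, 0.00217, 0.00369 and 0.0418). In this comparison 3.52% of tested genes were higher and 0.0577% lower. The call of Zfp352 ended without Ezh2 KO replicate 2 (2.32, limma adjusted p = 0.201), without Ezh1/2 dKO replicate 1 (2.76, limma adjusted p = 0.313) and without Ezh1/2 dKO replicate 2 (2.97, limma adjusted p = 0.292). The other 3 calls remained when any of the 8 libraries was left out.

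Ezh2 Y726D ESCs had more Zscan4 RNA than Ezh2 KO ESCs. The log2 fold change was 2.38 ± 0.48 for Zscan4c, 2.61 ± 0.54 for Zscan4d and 2.73 ± 0.59 for Zscan4f (limma adjusted p = 0.043, 0.0459 and 0.0505), and 1.26 ± 0.58 for Zfp352 (limma adjusted p = 0.339). The 3 genes called compare with 2.31% of tested genes higher and 1.21% lower. None of the 3 was called without Ezh2 KO replicate 1, without Ezh2 KO replicate 2 or without Ezh2 Y726D replicate 2, where the log2 fold changes were between 1.78 and 3.19, and Zscan4f was not called without either Ezh1/2 dKO library (limma adjusted p = 0.104 in each case).

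Zscan4c and Zscan4d were lower in Ezh2 Y726D than in Ezh1/2 dKO, by -3.03 ± 0.48 and -3.14 ± 0.54 on the log2 scale (limma adjusted p = 0.0222 and 0.0355). Zscan4f had -2.43 ± 0.59 and Zfp352 -1.61 ± 0.58 (limma adjusted p = 0.105 and 0.285). Both count tools called 3 of the 4 genes here, Zscan4f included (edgeR -2.35, adjusted p = 0.0848, and DESeq2 -2.33, adjusted p = 0.00182). Here 1.49% of tested genes were lower and 0.187% higher, that is 207 and 26 genes, or 168 and 50 after quantile normalisation. Neither gene was called without Ezh1/2 dKO replicate 1 or without Ezh1/2 dKO replicate 2 (log2 fold changes of -3.49 to -2.79, limma adjusted p = 0.176 to 0.42), and Zscan4f was called without either WT library or without Ezh2 Y726D replicate 2 (limma adjusted p = 0.0628 to 0.0949).

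**Figure D3:**
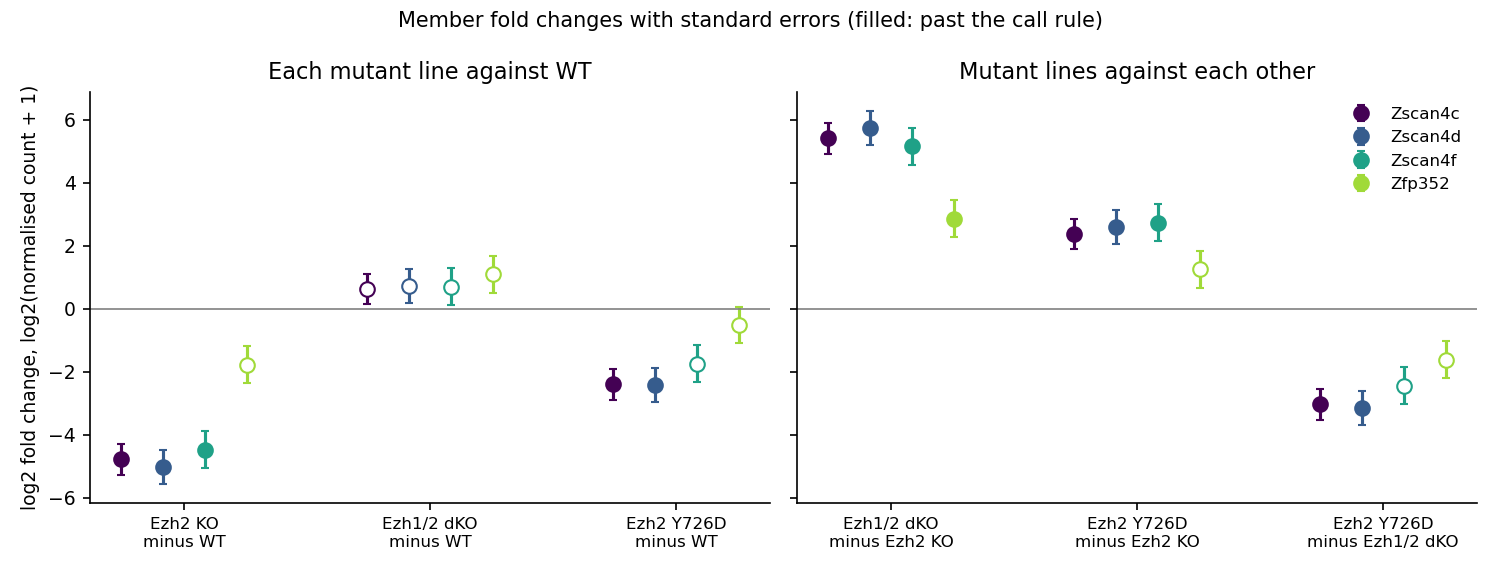
Points give the log2 fold change of each gene on the log2(normalised count + 1) scale, bars the standard error, for each mutant line against WT (left) and for the mutant lines against each other (right); filled points passed the call rule. The 3 Zscan4 genes lie between -5.02 and -4.47 in Ezh2 KO minus WT, and none of the 4 points of Ezh1/2 dKO minus WT is filled.

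Because reads of the Zscan4 copies may be split between rows, the 6 Zscan4 rows of the table (Zscan4a to Zscan4f) were also summed, a choice made after the values were seen. The sum was 1065 and 490 in WT, 20.9 and 22.3 in Ezh2 KO, 929 and 1380 in Ezh1/2 dKO, and 87.4 and 210 in Ezh2 Y726D. These are 798 and 509 reads in WT and 20 and 23 reads in Ezh2 KO. The summed family was lower than WT in Ezh2 KO by -5.00 ± 0.44 and in Ezh2 Y726D by -2.40 ± 0.44 on the log2 scale (limma adjusted p = 0.00421 and 0.038), and had 0.65 ± 0.44 in Ezh1/2 dKO (limma adjusted p = 0.465). The 3 mutant lines differed from each other in all 3 pairs (limma adjusted p = 0.00169 to 0.0247).

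Of 9 listed relatives of the Zscan4 and Tcstv genes, 3 were in the table (Zscan4a, Zscan4b and Zscan4e). Zscan4a, which had 331 and 156 normalised counts in WT and 7.32 and 7.74 in Ezh2 KO, was lower in Ezh2 KO (-4.74 ± 0.44, limma adjusted p = 0.00465) and in Ezh2 Y726D (-2.51 ± 0.44, limma adjusted p = 0.0324). Zscan4e was called lower in the same lines, from 74 reads in WT to 1 read in Ezh2 KO (82.3 times fewer per size factor, 95% exact interval 14.3 to 3300, for counting error only). Zscan4b had 22.7 and 12.5 normalised counts in WT and passed in neither. Of all tested genes, 0.31% were lower than WT in Ezh2 KO and 1.06% in Ezh2 Y726D. The 2 calls in Ezh2 KO became 1 without WT replicate 1 or without Ezh2 KO replicate 2, and those in Ezh2 Y726D became 0 without WT replicate 1 and 1 without Ezh2 Y726D replicate 1 or without either Ezh1/2 dKO library. With only the 2 lines compared, 2 relatives were still called in Ezh2 KO and 0 in Ezh2 Y726D. None of the 3 passed in Ezh1/2 dKO against WT, where their median log2 fold change was 0.59.

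The wider program of the 2-cell embryo was read with a list of 42 other genes, of which 33 were in the table and 30 passed the filter on low values (a mean normalised count of at least 5). In Ezh2 KO against WT, 13 were lower and 0 higher, with a median log2 fold change of -3.38 where 0.31% of all tested genes were lower and the median over all of them was -0.01. When 2 genes without any Ezh2 KO read were set at the limit that 3 reads allow, the median was -3.35. Those called on more than 3 reads in Ezh2 KO were Gm8300 (-4.58 ± 0.48), Gm5662 (-5.03 ± 0.56), Gm2022 (-4.53 ± 0.54), Gm2016 (-4.05 ± 0.54), Gm12794 (-4.21 ± 0.59), Tdpoz3 (-3.51 ± 0.53), Arg2 (-3.91 ± 0.71), the mitochondrial arginase, and Sp110 (-3.64 ± 0.67). The other 5 were called on 1 to 3 reads. For Dux, the homeobox gene that activates the program, 51 reads in WT stood against 3 in Ezh2 KO, 18.9 times fewer (95% exact interval 6.12 to 94.8). This interval and the next 4 pool the 2 libraries of a line and treat each read as a separate molecule, although the cDNA was amplified, so they cover counting error only and leave out the spread between libraries. The ratio was 49.0 for Tmem92 (16.4 to 240), 138 for Gm10696 (24.3 to 5490), 45.6 for BC080695 (7.74 to 1850) and 38.9 for Usp17lc (6.55 to 1580), a member of a family of deubiquitinases. The count of 13 was 8 with edgeR and 19 with DESeq2, and it was 2 without WT replicate 1, 19 without WT replicate 2, 4 without Ezh2 KO replicate 1, 1 without Ezh2 KO replicate 2 and 7 without either Ezh1/2 dKO library, while the median stayed between -4.07 and -2.95 when any library was left out.

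In Ezh2 Y726D against WT, 3 of these 30 genes were lower, where 1.06% of all tested genes were: Tdpoz3 (-3.36 ± 0.53, limma adjusted p = 0.023), BC080695 (-3.01 ± 0.60, limma adjusted p = 0.048) and Gm8300 (-2.25 ± 0.48, limma adjusted p = 0.0576). The median over the 30 was -1.44. In Ezh1/2 dKO against WT, 2 of 30 were higher, in a comparison where 3.63% of all tested genes were, so this count is close to the background. They were Trim43a, which had 4.002 and 1.93 normalised counts in WT and 40.4 and 61.3 in Ezh1/2 dKO (3.73 ± 0.92, limma adjusted p = 0.0721), and Arg2, with 44.0 and 25.03 in WT and 173 and 234 in Ezh1/2 dKO (2.56 ± 0.71, limma adjusted p = 0.0994). Trim43a had means of 2.96 in WT, 3.66 in Ezh2 KO and 3.46 in Ezh2 Y726D, each under the filter of 5. It passed that filter only through Ezh1/2 dKO (mean 50.8), the line in which it was called, so the filter favoured this call. The same holds for its call against Ezh2 KO. The median over the 30 was 1.15, where that over all tested genes was 0.01, and the lowest value was 0.13. An unadjusted limma p was under 0.05 for 10 of the 30. Between Ezh1/2 dKO and Ezh2 KO, 27 of the 30 were higher in Ezh1/2 dKO, where 3.52% of all tested genes were higher and 0.0577% lower. The median over the 30 was 4.78. Without Ezh1/2 dKO replicate 1 the count of 27 was 15, and without Ezh1/2 dKO replicate 2 it was 10. The smaller counts against WT also moved with single libraries: 0 to 7 genes were higher in Ezh1/2 dKO (7 without WT replicate 1, and 0 without WT replicate 2 or without either Ezh1/2 dKO library) and 1 to 8 lower in Ezh2 Y726D (1 without WT replicate 1 or without either Ezh1/2 dKO library, 2 without Ezh2 Y726D replicate 1, and 8 without WT replicate 2). Many of these genes are members of multicopy families, so the rows are not independent of each other. Of the 43 genes called lower in Ezh2 KO against WT, 18 were on the lists of members, relatives and other 2-cell genes, and of the 147 called lower in Ezh2 Y726D against WT, 7 were. These lists hold 4, 3 and 30 of the 13872 tested genes, and they were chosen with earlier results of these data known.

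**Figure D4:**
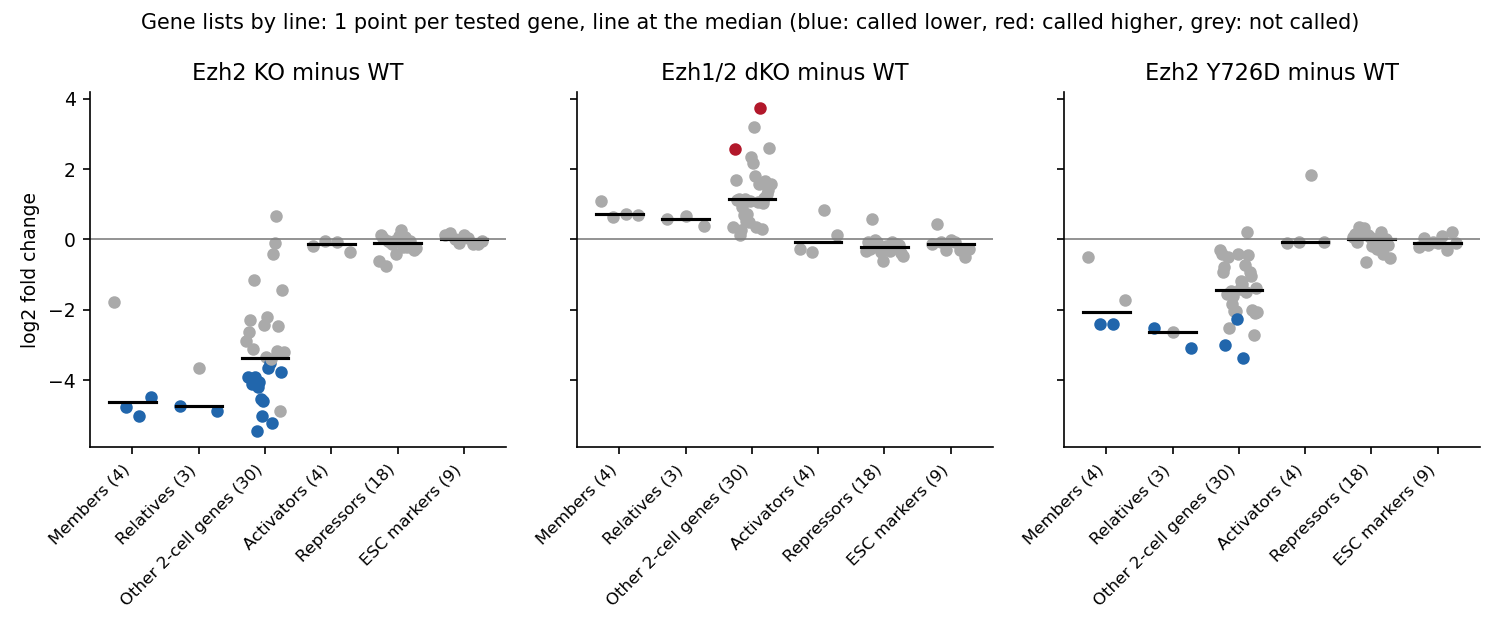
Each point is the log2 fold change of 1 tested gene against WT, by list (number of tested genes in brackets), with a line at the median; blue genes were called lower, red genes higher, and grey genes were not called. In Ezh2 KO the medians of the members (-4.62) and of the other 2-cell genes (-3.38) lie far below those of the activators, repressors and ESC markers.

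Apart from Dux, no listed regulator of the state was called. By limma, 0.0577% to 3.63% of all tested genes were called per direction and comparison. Few calls are due in sets of this size, so the absence of calls says little about the regulators. Dux was lower in Ezh2 KO than in WT (-3.92 ± 0.69, limma adjusted p = 0.083), on 3 Ezh2 KO reads. It was higher in Ezh1/2 dKO than in Ezh2 KO (4.83 ± 0.69, limma adjusted p = 0.00952) and lower in Ezh2 Y726D than in Ezh1/2 dKO (-3.42 ± 0.69, limma adjusted p = 0.0641). Of 4 activators other than Dux (Dppa2, Dppa4, Nelfa and Gata2), 0 were called in any of the 6 comparisons by limma, edgeR or DESeq2 (an unadjusted limma p under 0.05 in 4 of 24 tests), with log2 fold changes against WT of -0.37 to 1.82. Dppa2, which acts upstream of Dux, had 1110 and 984 normalised counts in WT, 1023 and 836 in Ezh2 KO, 851 and 874 in Ezh1/2 dKO, and 977 and 963 in Ezh2 Y726D. Of 18 repressors, among them the corepressor gene Trim28, the demethylase gene Kdm1a, the chromatin assembly factor genes Chaf1a and Chaf1b, Rif1 and genes of the variant PRC1.6 complex, 0 were called in any comparison by limma, edgeR or DESeq2 (an unadjusted limma p under 0.05 in 14 of 108 tests), with log2 fold changes against WT of -0.77 to 0.59. Kdm1a had the lowest adjusted p of these repressors against WT, with 531 and 543 normalised counts in WT and 356 and 329 in Ezh2 Y726D. Its log2 fold change of -0.65 ± 0.14 was past the p threshold but under the fold threshold (limma adjusted p = 0.0598).

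Among markers of other embryonic lineages, a few trophectoderm and primitive endoderm genes were called higher. Over all tested genes, 3.63% were higher than WT in Ezh1/2 dKO and 1.66% in Ezh2 Y726D. Of 5 tested trophectoderm markers, the keratin genes Krt8 and Krt18 were higher than WT in Ezh1/2 dKO (1.54 ± 0.33 and 1.97 ± 0.26, limma adjusted p = 0.0442 and 0.0106) and in Ezh2 Y726D (1.59 ± 0.33 and 1.65 ± 0.26, limma adjusted p = 0.0495 and 0.0214). The other tested trophectoderm markers, Cdx2, Eomes and Tfap2c, were called in neither line. The summed normalised count of the 7 listed trophectoderm markers was 344 to 440 in WT, 418 to 575 in Ezh2 KO, 648 to 909 in Ezh1/2 dKO and 595 to 1235 in Ezh2 Y726D, and Elf5 was at 0 in 4 of the 8 libraries. In Ezh2 Y726D, Cdx2 alone had 33.0 normalised counts in replicate 1 and 440 in replicate 2. Of 4 tested primitive endoderm markers, Gata4 and Dab2 were higher in Ezh1/2 dKO (2.27 ± 0.55 and 2.84 ± 0.62, limma adjusted p = 0.0674 and 0.0522), and the summed count of the 6 listed was 20.01 to 35.6 in WT, 10.46 to 30.0 in Ezh2 KO, 145 to 170 in Ezh1/2 dKO and 55.9 to 63.3 in Ezh2 Y726D, with Sox17 at 0 in 5 libraries. Of 6 tested epiblast and germ layer markers, 0 were called against WT by limma, edgeR or DESeq2 (2 of 18 tests had an unadjusted limma p under 0.05), and the summed count of the 8 listed was 133 to 242 in WT, 155 to 436 in Ezh2 KO, 214 to 395 in Ezh1/2 dKO and 216 to 345 in Ezh2 Y726D. Their part in the levels of the 2-cell genes was not tested.

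Over the 8 libraries, the log2 profiles of the 3 Zscan4 members had Pearson correlations of 0.99 to 1.00 with each other and of 0.83 to 0.86 with Zfp352. These describe 8 points that share lines and libraries. The 10 tested genes with the profile most like the mean of the 4 members, by Pearson correlation, were Gm8300 (0.998), Zscan4a (0.996), Gm5662 (0.994), Gm2016 (0.993), Gm1995 (0.992), Gm2022 (0.987), Gm12794 (0.983), Gm11544 (0.981), Gm13119 (0.981) and Dcdc2c (0.981). Of these, 6 were on the lists of relatives or other 2-cell genes. Dcdc2c moved within the smallest range, with 199 and 126 normalised counts in WT, 52.3 and 65.8 in Ezh2 KO, 165 and 202 in Ezh1/2 dKO and 103 and 115 in Ezh2 Y726D. Of 13868 genes compared, 85 had a correlation above 0.9, and 27 of the 85 were on these lists.

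**Figure D5:**
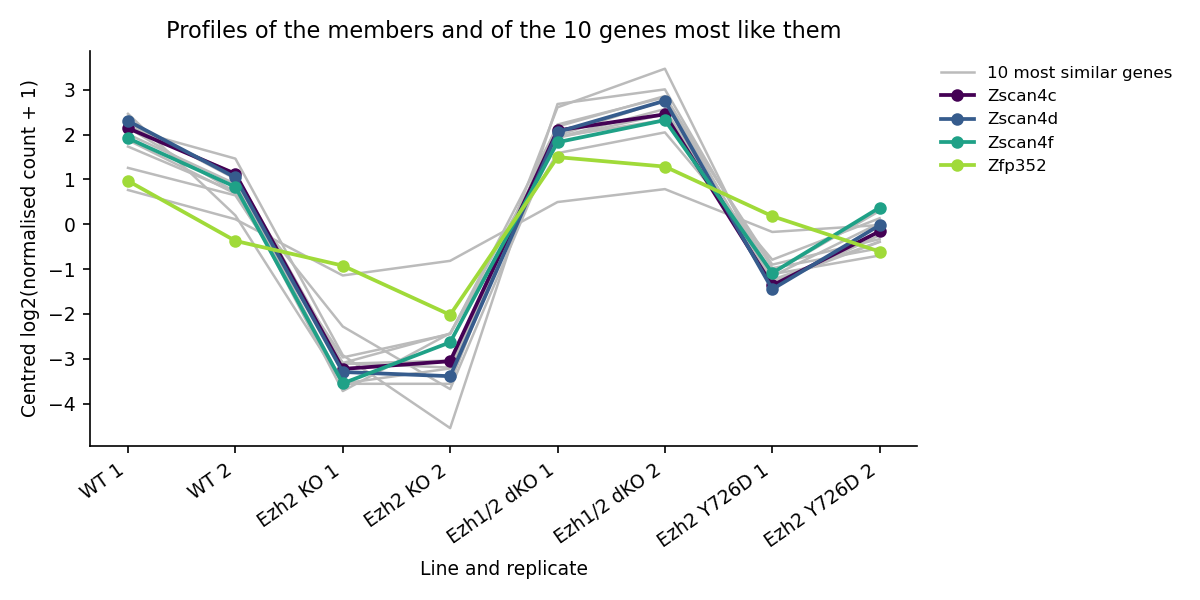
Lines give log2(normalised count + 1) minus its mean over the 8 libraries, for the 4 members (coloured, with points) and the 10 genes most like them (grey), by line and replicate. The 3 Zscan4 genes run together with most grey lines, lowest in the 2 Ezh2 KO libraries, and Zfp352 stays within a smaller range.

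No peak of PRC2 or its trimethyl mark was listed at the 4 genes in any line. SUZ12 peaks were found from 5 kb before to 5 kb after the gene at 0 of 4 members in WT, where 15.9% of annotated protein-coding genes had such a peak, and at 0 of 4 in Ezh2 R685C (9.49% of genes), Ezh2 Y726D (11.5%), Ezh2 KO (4.6%) and Ezh1/2 dKO (1.14%). H3K27me3 peaks were found at 0 of 4 in WT (21.5% of genes), Ezh2 R685C (28.9%), Ezh2 Y726D (4.18%), Ezh2 KO (17.4%) and Ezh1/2 dKO (0.152%). The WT SUZ12 peak nearest to Zscan4f was 1640351 bp from it, and the nearest to Zfp352 was 529533 bp away. For WT H3K27me3, the distances were 1640493 and 531268 bp. HA peaks of tagged EZH1 were at 0 of 4 genes (13.4% of genes), as in the untagged Ezh1/2 dKO control (4.69%).

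H3K27ac, a mark of active promoters and enhancers, had no listed peak at the 4 genes either, in Ezh2 R685C (52.1% of protein-coding genes), Ezh2 Y726D (54%), Ezh2 KO (44%) and Ezh1/2 dKO (35%). The H3K27ac peak nearest to Zfp352 stood 44847 bp away in the Ezh2 R685C list and 44857 bp away in the Ezh2 KO list, against 944339 bp (Ezh1/2 dKO) and 944012 bp (Ezh2 Y726D). The nearest to a Zscan4 member was 510183 bp away, from Zscan4c in Ezh2 R685C.

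For H3K27me1, H3K27me2 and ATAC-seq the lists are broad, taking in regions with a p of up to about 0.1, and most genes have one. H3K27me1 regions were listed at Zfp352 in WT (2 regions that cover 1015 bp of the gene and its 5 kb flanks) and in Ezh2 KO (1 region, 622 bp) and at 0 of 4 genes in Ezh1/2 dKO, where 78.2%, 70.4% and 82.9% of protein-coding genes on the listed chromosomes had one. The Ezh2 Y726D list holds no region of chromosome 4, so Zfp352 could not be read in it, and the 3 Zscan4 genes had none (83.2% of genes). H3K27me2 regions were listed at Zfp352 in Ezh1/2 dKO (2 regions, 2706 bp, 89.4% of genes) and in Ezh2 Y726D (1 region, 1268 bp, 89.9% of genes), and at 0 of 4 genes in WT (82.1%) and Ezh2 KO (58.4%). The whole H3K27me2 lists held 478485 regions in Ezh1/2 dKO and 475687 in Ezh2 Y726D, against 270131 in WT and 194708 in Ezh2 KO. These lists cover 21, 20, 19 and 20 chromosomes in the same order, so the totals are not over the same set. The study reports that all H3K27 methylation is lost in the double knockout and in Ezh2 Y726D ESCs. A region in these broad lists therefore does not show that the mark was present, and no gain of H3K27me2 at Zfp352 can be read from them.

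ATAC-seq regions, which mark open chromatin, were listed at Zscan4d and Zfp352 and at neither Zscan4c nor Zscan4f in each of the 4 lines. Such a region was listed at 96% of protein-coding genes in WT and in Ezh1/2 dKO, at 96.2% in Ezh2 KO and at 95.8% in Ezh2 Y726D. At Zscan4d they covered 1966 bp in Ezh2 KO, 435 bp in WT, 206 bp in Ezh2 Y726D and 1210 bp in Ezh1/2 dKO, and at Zfp352 1038, 389, 1111 and 921 bp in the same order. The largest -log10 p of all these broad regions was 2.29, at Zscan4d in Ezh2 KO, so none had a p of 1e-3 or less. With 1 list per line and target there is no replicate and no test between lines.

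The lists rest on reads aligned in a unique place, and this bears on the Zscan4 loci. Within the gene and its 5 kb flanks, 11.4% of 50-base stretches were unique in mm9 for Zscan4f, 18.9% for Zscan4c, 57.9% for Zscan4d and 71.9% for Zfp352, against 89.99% to 100% for the 8 ESC markers. The 2 genes without an ATAC-seq region were the 2 with the smallest unique share. Its part in the missing peaks was not tested, and a missing peak at Zscan4c and Zscan4f says little about what is bound there.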

How the data were processed

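RNA-seq libraries were prepared with SMART-seq2 and sequenced as 50 base single-end reads. The authors aligned them to mm9 with TopHat and dropped duplicates with Picard. They used HTSeq-count, ignoring strand, to count reads per RefSeq gene, and scaled each library by its DESeq2 size factor. The deposited values are thus a signal per gene and library, and 100% of them were a whole number of steps of their column's smallest value (tolerance 0.001), so that reads could be recovered. How reads with several alignments entered the counts is not given in the sources used here. For ChIP-seq and ATAC-seq, the authors used Bowtie with unique alignments, Picard to drop duplicates and MACS2 to call peaks. In the deposited lists there is a -log10 p per region, except for HA, where only positions are given. Their depth is unknown. From the narrow lists, regions with a p of 1e-10 or less were kept, and the broad lists were taken whole. The deposited comparisons with WT hold the authors' fold changes and p-values and were not used, and RING1B, H2AK119ub, WT H3K27ac, input and the other rescue or inhibitor samples were not analysed here.

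The limma fit (3.58.1, R 4.3.3, trended variance, no block) took log2(normalised count + 1) of the genes whose mean normalised count reached 5, over all 8 libraries, and p-values were adjusted by Benjamini-Hochberg over all 13872 genes of a comparison. As alternatives, the recovered reads were given to edgeR 4.0.16 and to DESeq2 1.42.0. The fits were run on simulated counts with known changes in genes with a mean of at least 20, as a check of the code. The simulated spread was not matched to that of the members, so this does not show how reliable their calls are. Positions and exons came from GENCODE for mm9, promoters from RefSeq for GRCm38.p6 (all 4 members matched), and 50-base stretches were counted by exact match on both strands of mm9, without stretches across exon junctions (Python 3.11.15, numba 0.67.0). Figures were drawn with matplotlib 3.10.9. Named by rule are the members, the list genes called against WT, the 10 genes most like the members, and Ezh1 and Ezh2. The activators, the repressors and Zscan4b, Cdx2, Eomes, Tfap2c, Elf5 and Sox17 are named as examples of their lists, chosen after their values were seen. The ChIP-seq samples named for Y726D without the Ezh1 deletion were taken as the same line. The members and gene lists were chosen with earlier results of these data known. The alternatives are described in the closing section.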

Additional observations from a re-analysis of the deposited data

Results flagged for a closer look

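The effect of the mutation differed between mutant lines for 9 pairs of a gene and a comparison, by the test of the difference between the lines (limma over all genes, adjusted p under 0.1). Between Ezh1/2 dKO and Ezh2 KO the log2 difference was 5.41 for Zscan4c, 5.75 for Zscan4d, 5.17 for Zscan4f and 2.86 for Zfp352. Between Ezh2 Y726D and Ezh2 KO it was 2.38 for Zscan4c, 2.61 for Zscan4d and 2.73 for Zscan4f. Between Ezh2 Y726D and Ezh1/2 dKO it was -3.03 for Zscan4c and -3.14 for Zscan4d. Groups of 2 libraries are too small for a check of single libraries that stand apart. Each mutant line is a clone, and the genotype and the clone cannot be told apart.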

How the results depend on the processing

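The direction of every member's log2 fold change was kept under all alternatives run with 1 exception, Zfp352 in Ezh2 Y726D minus WT, which was 0.16 without WT replicate 1 and -1.18 without WT replicate 2. The number of members called kept within 1.5 times of the reported one in 91 cases and moved further in 17, and in Ezh1/2 dKO minus WT it was 0 under all alternatives run. In Ezh2 Y726D minus WT it was 1 (from 2) with no filter on low values, 0 with only the 2 lines compared, and 1 with the replicate block. In Ezh2 Y726D minus Ezh2 KO it was 0 (from 3) with quantile normalisation and 0 with only the 2 lines compared. Leaving out 1 library gave 0 to 3 members in Ezh2 KO minus WT, 0 to 2 in Ezh2 Y726D minus WT, 3 to 4 in Ezh1/2 dKO minus Ezh2 KO, 0 to 3 in Ezh2 Y726D minus Ezh2 KO and 0 to 3 in Ezh2 Y726D minus Ezh1/2 dKO. The cause of these changes was not tested, except that fewer libraries estimate the spread when only 2 lines are compared or 1 library is left out.

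The labels number the libraries 1 and 2 in each line, but same-numbered libraries did not deviate together in every pair of lines, so the numbers were not used as pairs. The correlations of their deviations were 0.22 to 0.29 between mutant lines and -0.41 to -0.07 between WT and a mutant line. With the replicate number as a block, the call of Zscan4d in Ezh2 Y726D minus WT was lost (limma adjusted p = 0.102) and no other call of a member changed, and 34 genes were called in Ezh2 KO minus WT.

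Over all tested genes, 56 were called in Ezh2 KO minus WT, but 35 with no filter on low values, 34 with quantile normalisation, 30 with edgeR, 144 with DESeq2 and 28 with only the 2 lines compared. With only the 2 lines compared, the count was 32 (from 377) in Ezh2 Y726D minus WT, 1181 (from 496) in Ezh1/2 dKO minus Ezh2 KO, 228 (from 489) in Ezh2 Y726D minus Ezh2 KO and 150 (from 233) in Ezh2 Y726D minus Ezh1/2 dKO. In Ezh1/2 dKO minus Ezh2 KO it was 258 with a mean normalised count of at least 20 and 176 with quantile normalisation. Leaving out 1 library gave 6 to 135 genes in Ezh2 KO minus WT, 3 to 733 in Ezh1/2 dKO minus WT, 156 to 546 in Ezh2 Y726D minus WT, 53 to 665 in Ezh1/2 dKO minus Ezh2 KO, 98 to 962 in Ezh2 Y726D minus Ezh2 KO and 14 to 514 in Ezh2 Y726D minus Ezh1/2 dKO. Of the other 2-cell genes, 8 were lower in Ezh2 KO with edgeR and 19 with DESeq2 (from 13), 6 and 11 were lower in Ezh2 Y726D (from 3), and 3 and 6 were higher in Ezh1/2 dKO (from 2).

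At the loci, 0 members had a SUZ12, H3K27me3, HA or H3K27ac peak with every window, overlap and threshold run. For the broad lists, a p of at most 1e-3 left 0 members with a region: 0 for H3K27me1 in WT and Ezh2 KO, for H3K27me2 in Ezh1/2 dKO and Ezh2 Y726D, and for ATAC-seq in all 4 lines. Within 20 kb of the gene, 1 member had a region of H3K27me1 in Ezh1/2 dKO and of H3K27me2 in WT (from 0 each), and 2 of H3K27me2 in Ezh1/2 dKO (from 1). Within the gene alone, 1 had an ATAC-seq region in WT, Ezh1/2 dKO and Ezh2 Y726D (from 2 each), and within 5 kb of the start site 1 in Ezh1/2 dKO. In Ezh2 KO the Zscan4 counts rest on 2 to 5 reads per library, so a fall beyond that level could not be seen at this depth.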
